A study of Arabidopsis thaliana with 90 samples.

Results

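Of the 1500 regions bound by BTE1 in wild-type Arabidopsis thaliana seedlings, 539 (35.9%) also carried the transcription factor E2FA and did not overlap a region of the tagged COMPASS subunit WDR5A-HA. These members were chosen by measured values: a BTE1 region of the deposited list had to overlap an E2FA region by at least 1 bp and no WDR5A-HA region, on chromosomes 1 to 5. The values of BTE1, E2FA and WDR5A-HA at the members are therefore given as a description, with no test. The remaining BTE1 regions were 600 with both E2FA and WDR5A-HA and 361 without E2FA. Binding and marks were read from deposited peaks of ChIP-seq (sequencing of immunoprecipitated chromatin) on whole 9-day-old Col-0 seedlings kept in continuous white light, with 3 biological replicates for each of 10 features. All groups used here were of the wild type. The BTE1 antibody was raised against the N-terminal part of the protein and the E2FA antibody against the whole protein. WDR5A-HA was precipitated with beads against the HA tag from plants whose genotype was given as Col-0, and what promoter drove the tagged gene was not stated in the labels. The TATA-binding protein (TBP) was present as a single list with no replicates.

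E2F proteins bind the promoters of genes for DNA synthesis and cell division, and in the DREAM complex they act together with retinoblastoma-related and MuvB-type proteins that hold such genes down outside the dividing state. BTE1 is a plant protein of the DREAM complex. WDR5 is a shared subunit of the COMPASS complexes, which methylate lysine 4 of histone H3. H3K4me3 marks the first part of transcribed genes, H3K4me2 lies around it and H3K4me1 further into the gene, while the histone variant H2A.Z sits at the first nucleosomes of genes. RNA polymerase II (Pol II) carries Ser5 phosphate (Ser5P) early in a gene and Ser2 phosphate (Ser2P) during elongation, and TBP marks the assembly of the initiation complex.

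Peak heights are the authors' fold enrichment, the ratio of reads at the summit to the peak caller's background. The median BTE1 fold over the members was 4.88 in library 1, 5.68 in library 2 and 4.69 in library 3, a mean of 5.08 ± 0.529 (SD, n = 3 libraries). It was 4.27 ± 0.505 over the regions with WDR5A-HA and 3.31 ± 0.456 over the regions without E2FA (SD, n = 3). For E2FA the member medians were 4.81, 3.76 and 5.16. All 539 members had a BTE1 peak in at least 1 library, 418 had one in all 3, and 453 had an E2FA peak in all 3. The summits of BTE1 and E2FA lay a median of 31 bp apart at the members, with an interquartile range of 13 to 57.5 bp. Across the 539 members the mean folds of BTE1 and E2FA had a Pearson r of 0.752 and a Spearman rho of 0.637. Both measures share the regions and their local read coverage, so the correlation is a description. Members were a median of 640 bp wide, against 621 bp for the regions with WDR5A-HA.

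The highest mean BTE1 fold among the members was at CDT1A, the factor that loads the replicative helicase onto origins. Its region on TAIR10 chromosome 2, 13328279 to 13329712, had BTE1 folds of 25.9, 31.0 and 21.8 in libraries 1 to 3, with a mean E2FA fold of 22.9 ± 2.81 (SD, n = 3). The BTE1 and E2FA folds at CDT1A lay far above the member medians in each library. The region at COP9, a COP9 signalosome subunit, and AT4G14120 on chromosome 4, 8134422 to 8135826, reached BTE1 folds of 16.7, 33.5 and 21.9. Library 2 was the high one there, and the SD of 8.61 was the largest of the 12 strongest members. The gene of RPA70B, a large subunit of the single-strand binding protein RPA, shares its region on chromosome 5, 2571554 to 2572850, with AT5G08010. Its BTE1 folds were 26.1, 23.1 and 19.3. The region of AT3G52630, listed as RPA3A and thus a small RPA subunit, lies on chromosome 3, 19513608 to 19514810, with BTE1 folds of 23.8, 26.6 and 13.8. It also lies within 500 bp of AT3G52620 and AT3G52640, so the peak cannot be given to 1 gene. At MCM6, a subunit of the replicative helicase, the BTE1 folds were 17.5, 26.8 and 18.5 (chromosome 5, 18009938 to 18010924, shared with BGLU13).

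The other 7 of the 12 strongest members had mean BTE1 folds from 17.5 to 22.9. They included SDG4, a SET-domain protein also named ASHR3, with a mean of 21.0 ± 0.901 (SD, n = 3) and the closest agreement between libraries. They also included BRCA2(IV) and BRCA1, both of homologous recombination, at 17.9 ± 3.64 and 17.5 ± 1.87 (SD, n = 3). The region of ATIM, listed as TIMELESS, had a mean of 17.8 ± 3.09 (SD, n = 3) and lies beside PKP-BETA1, a subunit of plastid pyruvate kinase. The others lie at AT3G23740, AT1G20720 and the pair AT1G75150 and AT1G75160. Of the 12, those of CDT1A, COP9, AT1G75150 and ATIM had an H3K4me3 peak in all 3 libraries, 4 regions beside 53.4% of all members and 70.2% of all BTE1 regions. None of the 12 overlapped a WDR5A-HA peak in replicate 3, beside 15.8% of all members, and with 12 regions nothing is read from either count.

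**Figure D1:**
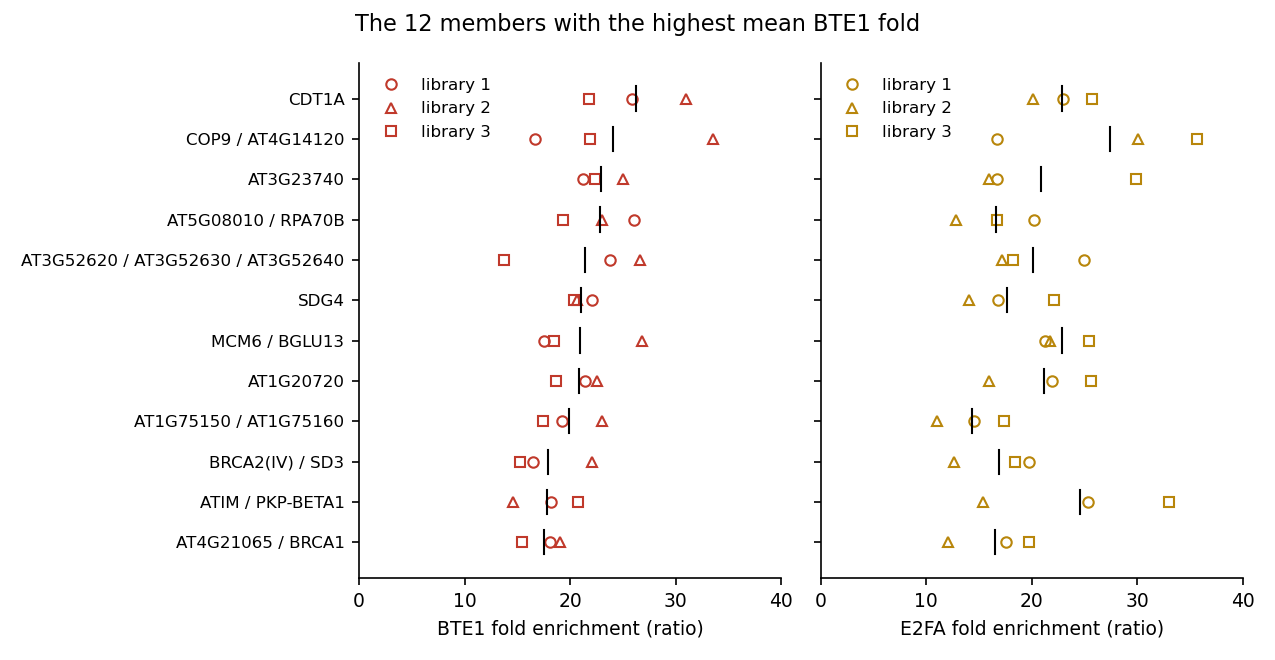
Fold enrichment (ratio, horizontal axes) of BTE1 (left) and E2FA (right) at the 12 members with the highest mean BTE1 fold, 1 row per region with its linked genes. Symbols are the 3 libraries and black bars their mean. The CDT1A region has the highest BTE1 mean (26.2), and at COP9 library 2 (33.5) lies above libraries 1 and 3.

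At the edge of the selection, the smallest E2FA overlap of a member was 163 bp, at TSL, the TOUSLED protein kinase. Just outside, the regions at AT3G48380 with AT3G48390 and at AT4G15830 with AT4G15840 overlapped a WDR5A-HA region by 10 bp. Most members lay far from this edge. The gap to the nearest WDR5A-HA region had a median of 3106 bp (interquartile range 1621 to 5322 bp), and 44 members (8.16%) lay within 500 bp of one. The longest gap was 142970 bp, at MCM5, another subunit of the replicative helicase.

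The WDR5A-HA list was in effect built on library 1: each of its 17441 regions held a peak of replicate 1, while 83.7% held one of replicate 2 and 89.1% one of replicate 3. No member had a peak in replicate 1, as the rule requires. In replicate 2, 42 members (7.79%) had a peak. In replicate 3, 85 members had a peak, or 15.8% (exact Clopper-Pearson 95% interval 12.8 to 19.1%), against a background of 56.7% of all BTE1 regions and against 90.7% of the regions with WDR5A-HA. The median fold of these peaks was 1.85 in replicate 2 and 1.94 in replicate 3, lower than the 2.48 and 2.56 at the regions with WDR5A-HA. Taken over libraries, 97 members (18%) had a peak in replicate 2 or 3 and 442 (82.0%) had none in any library. For the first group the absence of WDR5A-HA thus rested on library 1 or on 2 of the 3 libraries. Read totals are not part of the peak lists, so the depth behind these values was unknown. The seedlings were whole plants, so a mark in few cells cannot be told apart from a weak mark in all cells.

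H2A.Z and H3K4me2 lay at nearly equal shares of the members and of the regions with WDR5A-HA. H2A.Z peaks covered 91.5%, 90.2% and 90.5% of the members in libraries 1 to 3, a mean of 90.7% ± 0.669, against 89.0% ± 0.441 with WDR5A-HA (SD, n = 3). The difference within each library was small and positive, 1.97, 1.5 and 1.70 percentage points. H3K4me2 covered 82.8% ± 1.02 of the members and 82.7% ± 0.726 of the regions with WDR5A-HA (SD, n = 3), and the sign of the difference was not the same in all libraries (-0.35, 0.41 and 0.36 points). In all 3 libraries together, 481 members carried H2A.Z against a background of 89.1% of all BTE1 regions, and 433 carried H3K4me2 against 80.5%. The median fold was 5.02 against 4.96 for H2A.Z and 3.63 against 3.60 for H3K4me2 (means of 3 libraries), and the sign of neither difference was the same in all libraries (exact permutation p = 0.5). H3K4me1 overlapped few regions of either set, 5.63% ± 0.214 of the members and 5.17% ± 0.577 of the regions with WDR5A-HA (SD, n = 3). In all 3 libraries 7 members carried it, against a background of 1.47%.

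H3K4me3 was the histone mark that differed most between these sets. It covered 56.8%, 59.9% and 56.4% of the members in libraries 1 to 3, against 80.7%, 82.7% and 81.8% of the regions with WDR5A-HA. The libraries of the sets did not overlap. The difference was -24.0 ± 1.35 percentage points (SD, n = 3), negative in 3 of 3 libraries. In the exact two-sided sign-flip permutation test within libraries its p was 0.25, the smallest that 3 libraries allow, and 0.27 after Benjamini-Hochberg adjustment over 14 share differences. In all, 288 members carried H3K4me3 in all 3 libraries, against a background of 70.2% of all BTE1 regions, 47 in 1 or 2 libraries and 204 in none. Where a peak was present it was also lower, with a median fold of 4.62, 4.17 and 4.53 at the members against 6.80, 6.15 and 6.83 with WDR5A-HA. This difference was -2.15 ± 0.159 (SD, n = 3), with an exact permutation p of 0.25 and an adjusted p of 0.44 over 7 fold differences.

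**Figure D2:**
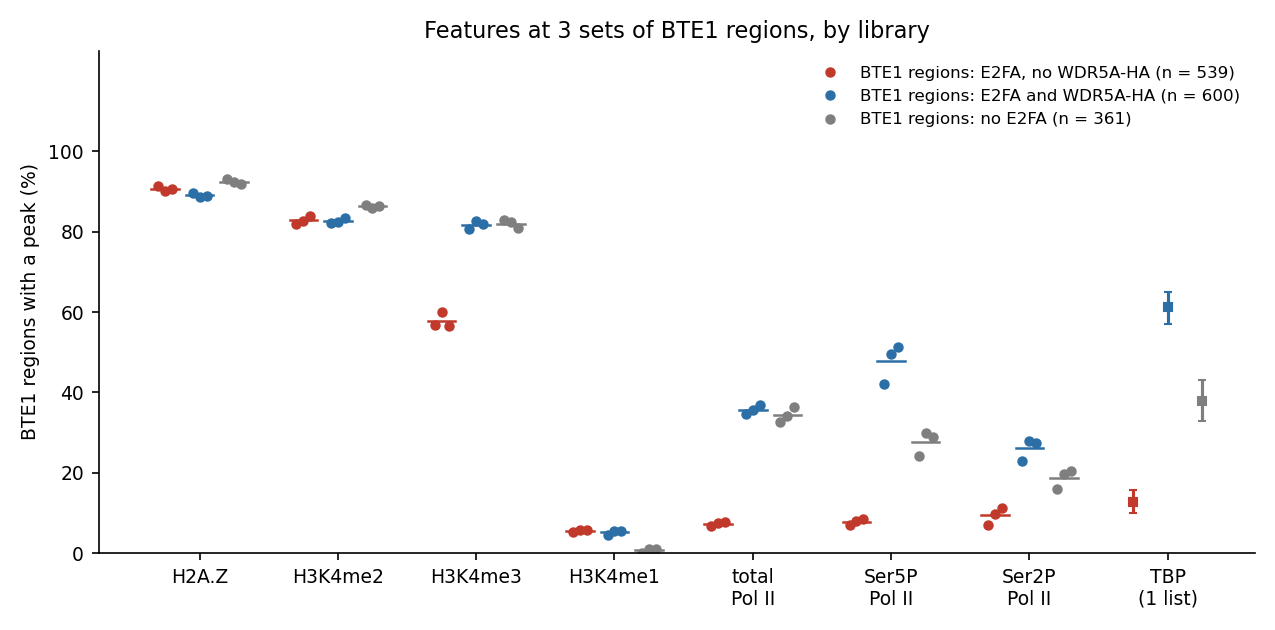
Share of BTE1 regions with a peak (%, vertical axis) for 7 features in each of 3 libraries (circles, bars are means) and for the single TBP list (squares with exact 95% intervals), in the 3 sets of BTE1 regions. H2A.Z and H3K4me2 lie at like heights in all sets, while for H3K4me3, the 3 Pol II forms and TBP the members lie below both other sets. Of the 361 regions without E2FA, 218 overlapped a WDR5A-HA region.

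All 3 forms of Pol II were found at few members. Total Pol II had a peak at 36, 41 and 42 members in libraries 1 to 3, or 6.68%, 7.61% and 7.79%, against 34.5%, 35.7% and 36.8% of the regions with WDR5A-HA. Ser5P was at 7.05%, 7.98% and 8.53% of the members, against 42.2%, 49.7% and 51.3%. Ser2P was at 7.05%, 9.83% and 11.3%, against 22.8%, 28% and 27.5%. No library of the members reached the lowest library of the other set for any form. The differences were -28.3 ± 0.647 points for total Pol II, -39.9 ± 4.15 for Ser5P and -16.7 ± 1.28 for Ser2P (SD, n = 3). Each was negative in 3 of 3 libraries, with an exact permutation p of 0.25, the smallest possible. In all 3 libraries 30 members carried total Pol II against a background of 21.3% of all BTE1 regions, 25 carried Ser5P against 21.6%, and 35 carried Ser2P against 14.3%.

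The Pol II peaks at members were also low. Their median fold was 2.68 ± 0.114 for total Pol II against 3.96 ± 0.0349 with WDR5A-HA (SD, n = 3). For Ser5P it was 2.57 ± 0.0771 against 3.14 ± 0.0359, and for Ser2P 2.79 ± 0.0644 against 4.17 ± 0.0530 (SD, n = 3). TBP overlapped 68 members, or 12.6% (exact 95% interval 9.93 to 15.7%), against a background of 38.1% of all BTE1 regions and 61.2% of the regions with WDR5A-HA. With 1 list, TBP has no replicate check, and the interval covers counting error only.

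The same features were compared with the 361 BTE1 regions without E2FA, of which 218 overlapped a WDR5A-HA region. H3K4me3 was at 82.0% ± 0.999 of them and total Pol II at 34.3% ± 1.82 (SD, n = 3), and the members differed from them by -24.3 ± 1.86 and -27.0 ± 1.32 points (SD, n = 3). The differences were -19.8 ± 2.49 points for Ser5P and -9.34 ± 0.433 for Ser2P, and 4.89 ± 0.425 for H3K4me1, which was at 0.739% of the regions without E2FA (SD, n = 3). H2A.Z and H3K4me2 differed by -1.70 ± 0.334 and -3.53 ± 1.21 points (SD, n = 3). All 7 had the same sign in 3 of 3 libraries and an exact permutation p of 0.25.

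Lower H3K4me3 and Pol II shares without WDR5A-HA than with it were not particular to regions with both BTE1 and E2FA, but the shares themselves differed between classes. Among BTE1 regions without E2FA, the 143 that lacked WDR5A-HA differed from the 218 that had it by -21.1 ± 0.598 points for H3K4me3 and -43.8 ± 1.94 for total Pol II (SD, n = 3). Among E2FA regions without BTE1, the 751 that lacked WDR5A-HA differed from the 1325 that had it by -28.4 ± 0.304 and -35.5 ± 0.213 points (SD, n = 3). The TBP differences were -46.6 and -52.0 points, beside -48.6 for the members. Total Pol II itself was at 7.93% ± 2.25 of the 143 and 24.9% ± 1.85 of the 751, beside 7.36% of the members (SD, n = 3). TBP was at 9.79% and 28.1%, beside 12.6%. H3K4me3 was at 69.2% ± 0.699 and 28.1% ± 0.554, beside 57.7% (SD, n = 3). The 751 thus had total Pol II and TBP more often than the members, and H3K4me3 less often. H2A.Z was at 90.7% of the members and at 91.8% ± 0.404 of the 143 BTE1 regions with neither E2FA nor WDR5A-HA, and H3K4me2 at 82.8% and 84.8% ± 1.07 (SD, n = 3). At E2FA regions without BTE1, H2A.Z was at 45.7% ± 1.24 of those without WDR5A-HA and 58.1% ± 0.349 of those with it, and H3K4me2 at 32.1% ± 0.945 and 42.9% ± 1.21 (SD, n = 3). High shares of H2A.Z and H3K4me2 were thus seen in each class with BTE1, also without E2FA, and were not particular to the members. The differences between these classes were not tested.

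The members at least 1000 bp away from every WDR5A-HA region, a subset of 460 chosen after seeing the data, gave nearly the same differences from the regions with WDR5A-HA: -23.8 points for H3K4me3, -29.1 for total Pol II and -40.5 for Ser5P. For H3K4me3, total Pol II and TBP, the 97 members with a WDR5A-HA peak in replicate 2 or 3 lay between the other members and the regions with WDR5A-HA. H3K4me3 was at 77.0% ± 2.38 of them, total Pol II at 19.6% ± 1.03 and TBP at 34.0%, against 53.5% ± 2.2, 4.68% ± 0.522 and 7.92% of the 442 members with no WDR5A-HA peak in any library (SD, n = 3). For H2A.Z (96.6% against 89.4%) and H3K4me2 (89.0% against 81.4%) the 97 lay above both, and H3K4me1 was at 3.78% of them against 6.03% of the 442. With the 442 set against the 490 regions that had a WDR5A-HA peak in all 3 libraries, the differences grew to -28.6 points for H3K4me3, -35.9 for total Pol II and -50.6 for Ser5P.

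The share of positions under a peak was followed away from the BTE1 summit. At the summit itself, 34.3% of member positions lay under an H3K4me3 peak against 52.3% with WDR5A-HA, and at 500 bp 19.6% against 40.2% (means of 3 libraries). At 3000 bp the sets were nearly level, at 13.0% and 14.1%. Ser5P stood at 4.1% of summits against 34.4%, and at 1000 bp at 2.5% against 11.5%. TBP stood at 8.2% against 49.2% at the summit and at 4.5% against 12.2% at 1000 bp. The low values at members thus reached at least 1000 bp from the summit, with both sides pooled, and were not limited to the width of the region. H2A.Z followed 1 course in the sets, from 65.5% and 61.8% at the summit to 13.5% and 14.7% at 1000 bp. H3K4me2 was higher at the summits of members, 54.6% against 43.3%, and lower at 1000 bp, 14.3% against 28.2%.

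**Figure D3:**
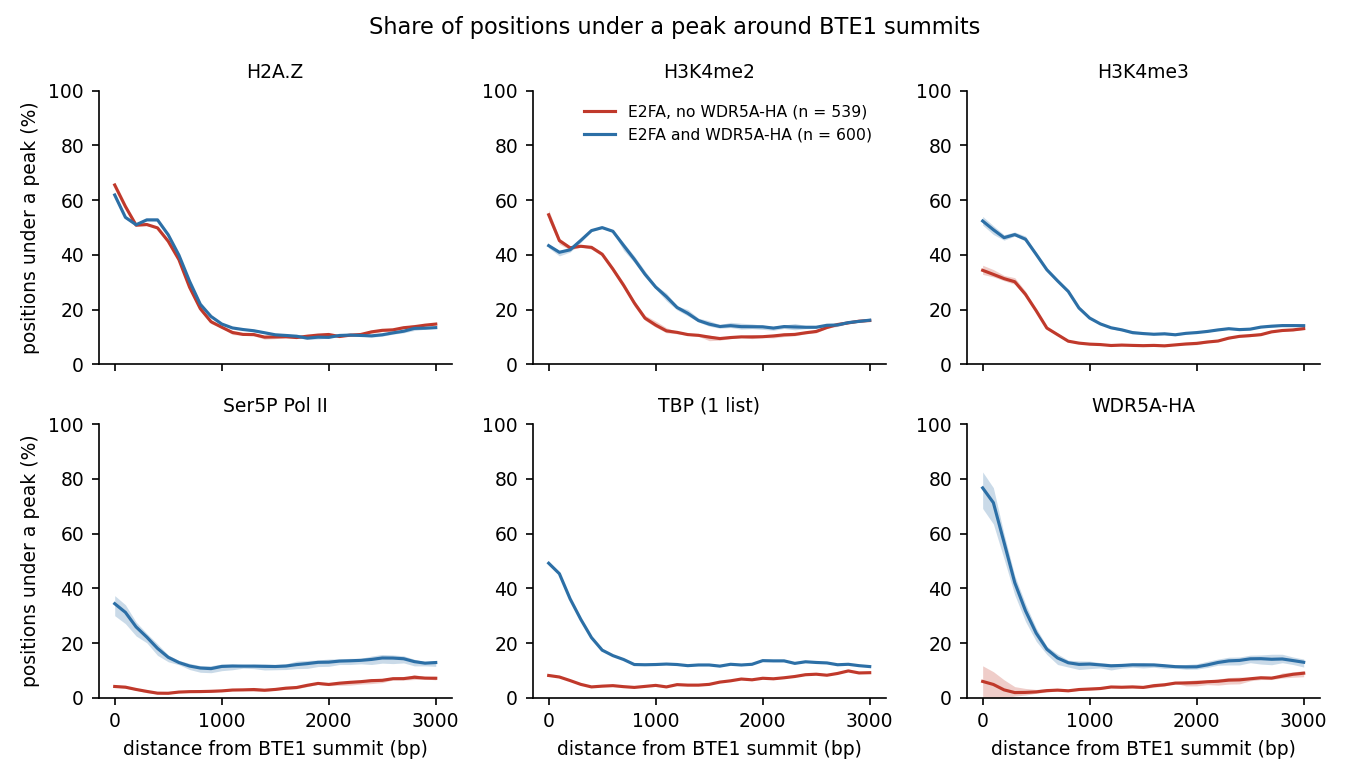
Share of positions under a peak (%, vertical axes) against distance from the BTE1 summit (bp, both sides pooled) for members (red) and BTE1 regions with E2FA and WDR5A-HA (blue). Lines are means of 3 libraries, bands their range, and TBP is 1 list. H2A.Z follows the same course in both, H3K4me3 is 34.3% against 52.3% at the summit, and Ser5P is 4.1% against 34.4%.

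H3K4me3 and Pol II were also read together, region by region. The most frequent state among members was H3K4me3 in all 3 libraries with no form of Pol II in any, at 251 members (46.6%), against a background of 38.8% of all BTE1 regions. It was also the most frequent state of the regions without E2FA, at 138 (38.2%), and was found at 193 (32.2%) of those with WDR5A-HA. Neither feature in any library was found at 165 members (30.6%), against a background of 16.3%. H3K4me3 together with a Pol II form, each in all 3 libraries, was found at 20 members (3.71%) and at 211 of the 600 regions with WDR5A-HA (35.2%), against a background of 22.4%. Among the 288 members with H3K4me3 in all 3 libraries, 13 had total Pol II in all 3, 8 Ser5P and 10 Ser2P, and 30 (10.4%) overlapped TBP. Of the 477 regions with WDR5A-HA and H3K4me3, 156 had total Pol II in all 3, 174 Ser5P, 107 Ser2P and 281 (58.9%) TBP. The low Pol II share was therefore also seen among regions that all carried H3K4me3. H2A.Z with H3K4me2 and without H3K4me3 was found at 111 members (20.6%) and at 5.83% of the regions with WDR5A-HA, against a background of 11.9%.

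**Figure D4:**
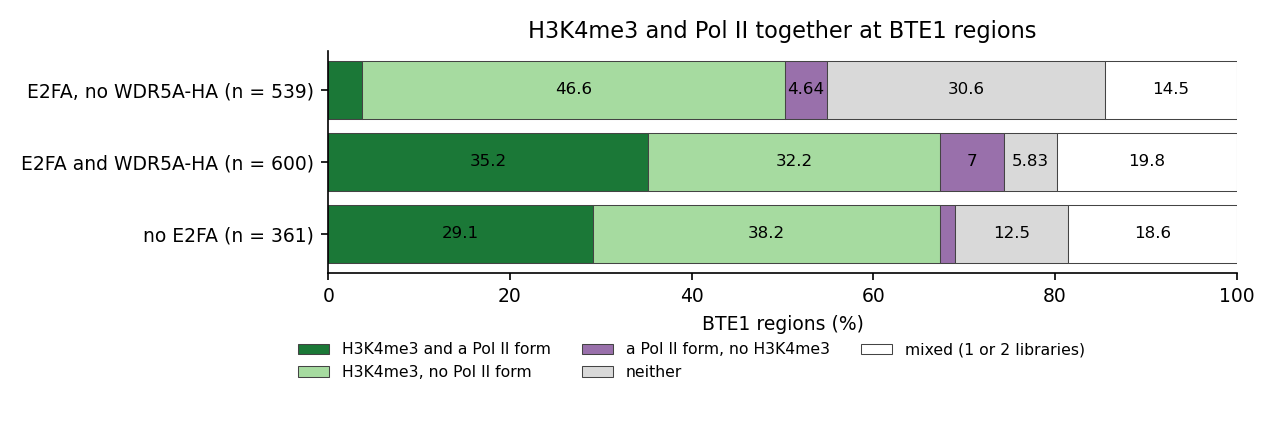
Share of BTE1 regions (%, horizontal axis) by H3K4me3 and any of the 3 Pol II forms, where a feature counts as present in all 3 libraries and as absent in none of them. Regions with a feature in 1 or 2 libraries are in the white part. The largest part of the members (46.6%) has H3K4me3 without Pol II, and the part with both is 3.71% against 35.2% with WDR5A-HA.

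The members with and without H3K4me3 had nearly the same BTE1 fold. Its median was 5.06 ± 0.512 at the 288 with the mark in all 3 libraries and 4.97 ± 0.556 at the 204 with none (SD, n = 3). Their distance from the nearest WDR5A-HA region was also alike, with medians of 3113.5 and 3131 bp. H2A.Z differed more, with a share of 99.7% ± 0.601 against 76.1% ± 1.23 and a median fold of 5.48 ± 0.0111 against 4.15 ± 0.0492 (SD, n = 3). H3K4me2 covered 97.6% ± 0.919 of the first and 58.5% ± 1.42 of the second (SD, n = 3). Total Pol II went the other way, at 6.25% ± 0.347 of the members with H3K4me3 and 8.82% ± 0.849 of those without (SD, n = 3). With all BTE1 regions ranked by fold into 4 groups of like size, the mark was at 52.5%, 59.7%, 56.6% and 59.2% of members from the weakest group to the strongest, while total Pol II was at 10.6%, 9.70%, 6.92% and 5.39%. The strongest group held 204 members and the weakest 66. Over the 335 members with an H3K4me3 peak in any library, the mean folds of BTE1 and H3K4me3 had a Pearson r of -0.168 and a Spearman rho of -0.184, a description of points that share their regions.

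Among the members with the highest H3K4me3 folds were ATIM (9.55, 8.54 and 9.51 in libraries 1 to 3), the RNA-binding protein gene LARP6a (8.69, 8.78 and 8.47) and the cyclin gene CYCA3;4 (7.44, 8.09 and 9.54). CYCA3;4 has a WDR5A-HA peak in replicates 2 and 3 and LARP6a one in replicate 2, while ATIM has none. No peak of any Pol II form lay at ATIM in any library, although its BTE1, E2FA and H3K4me3 were all high.

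Of the 539 members, 456 (84.6%) had no peak of any Pol II form in any library, against a background of 59.1% of all BTE1 regions. Some form in all 3 libraries lay at 49 (9.09%), against a background of 28.7%, and 16 carried all 3 forms in all 3 libraries, against 11.6%. TBP overlapped 37 of these 49, beside 12.6% of all members and 38.1% of all BTE1 regions. A WDR5A-HA peak in replicate 3 lay at 24 of the 49, beside 15.8% and 56.7%. The highest Ser2P fold was at AT4G25070, at 6.32, 11.8 and 11.6 in libraries 1 to 3, with library 1 the low one. That region lies 55 bp from a WDR5A-HA region. The next were AT2G25910 (3.28, 4.77 and 4.88), the region at PIPK10, a phosphatidylinositol phosphate kinase gene, with AT4G01200 and AT4G01210 (3.70, 4.43 and 4.07), and the region at ABCB9, an ABC transporter gene, with AT4G18060 (3.37, 4.48 and 3.69). All of the last 3 overlapped TBP. A WDR5A-HA peak lay at AT2G25910 and at the PIPK10 region in replicates 2 and 3, and at AT4G25070 in replicate 3. The ABCB9 region had no WDR5A-HA peak in any library.

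At the other end, 57 members (10.6%) had no peak of H3K4 methylation or of Pol II in any library, against 19 (3.17%) of the regions with WDR5A-HA, 14 (3.88%) of those without E2FA and a background of 6% of all BTE1 regions. Of the 57, 17 (29.8%) carried H2A.Z in all 3 libraries, near the 28.9% of all 90 such BTE1 regions. No peak of any of the 7 features and no TBP lay at 30 members, against 3 regions with WDR5A-HA and a background of 2.67%. Of the 57, the strongest in BTE1 were BRCA2(IV) with SD3, at BTE1 folds of 16.5, 22.1 and 15.2, and MCM5, at 13.9, 16.5 and 13.3. MCM5 had E2FA folds of 27.9, 22.9 and 31.6, with COP9 the highest mean of all members (27.5 at each), and H2A.Z peaks in all 3 libraries with a mean fold of 2.9. CSLD6, a cellulose synthase-like gene, had BTE1 folds of 9.77, 10.4 and 10.5 and no H2A.Z. AT3G44763 followed at 9.28, 9.48 and 6.27.

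Most members lay at gene ends, as did most of the other BTE1 regions. The summit lay within 200 bp of a gene end at 74.8% of members, 74.2% of regions with WDR5A-HA and 70.9% of those without E2FA. It lay inside a protein-coding gene at 65.5%, 68.2% and 78.9% of these sets. The annotation used gives no strand, so a gene was linked to a member when either of its ends lay within 500 bp of the region, and start and end of a gene could not be told apart. In this way 734 genes were linked, 2.67% of 27444 nuclear protein-coding genes: 259 members had 1 gene, 229 had 2, 11 had more and 40 had none. A WDR5A-HA region lay in, or within 500 bp of, 273 of the 734 genes (37.2%), beside 58.9% of all genes. The rule kept only regions without WDR5A-HA, which lowers this share, so nothing is read from it.

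Over the whole gene body the linked genes also had H3K4me3 and Pol II less often than those of regions with WDR5A-HA. Of the 723 genes linked to a member and to no region with WDR5A-HA, 442 (61.1%) had H3K4me3 in all 3 libraries, against a background of 58.6% of all genes and 83.7% of the 898 genes linked only to a region with WDR5A-HA. Total Pol II was on 23.2% of the member genes against a background of 40.8%, Ser5P on 22.4% against 39.6% and Ser2P on 28.8% against 42.2%. For the genes of regions with WDR5A-HA these shares were 51.3%, 53.0% and 51.1%. H3K4me1 was on 49.0% of member genes, 56.2% of the genes of regions with WDR5A-HA and 36.5% of all genes. The H3K4me3 share of member genes was thus close to that of all genes, and their Pol II shares lay below it. No test was made over genes, which are not replicates.

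The members were then sorted by lists of cell cycle genes. The lists were drawn up from textbook roles with earlier results of these data known, so a count is a description. Of 251 genes in 10 lists, 79 were linked to a member. In 8 lists of the cell cycle the share lay between 15.8% and 53.8% of the list, beside the 2.67% of all genes. No gene of photosynthesis (22 genes) or of cytosolic ribosomal proteins (14 genes) was linked to a member, and 1 of each was linked to a region with WDR5A-HA. For lists this short, no link is near the 2.67% of all genes, so nothing is read from it.

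Among 62 DNA replication genes, 31 were linked to members and 23 to regions with WDR5A-HA, with 1 gene in both. The 33 member regions of this list had a median BTE1 fold of 10.2 and a median E2FA fold of 12.1, the highest E2FA median of the lists, and reached from 3.50 to 26.2 for BTE1. They took in 5 of the 12 strongest members, at CDT1A, RPA70B, AT3G52630, MCM6 and ATIM. H3K4me3 lay at 21 of the 33 in all 3 libraries, beside 53.4% of all members, and H2A.Z at all 33, beside 89.2%. A Pol II form in all 3 libraries lay at 4, beside 9.09% of all members, and nothing is read from these counts. An example chosen after its values were seen is RPA2, the middle subunit of RPA, with total Pol II folds of 3.35, 2.91 and 2.95. CDT1A also had another member region, with a mean BTE1 fold of 10.5 ± 1.57 (SD, n = 3), 203 bp from a WDR5A-HA region.

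Genes that copy chromatin and DNA methylation along with the DNA had 7 of 13 linked to members and 2 to regions with WDR5A-HA. The maintenance DNA methyltransferase MET1 had BTE1 folds of 14.4, 22.2 and 14.8 and no H3K4me3 peak. FAS1, a subunit of the histone chaperone CAF-1, had BTE1 folds of 11.9, 20.9 and 12.1 and H3K4me3 folds of 5.66, 4.17 and 5.18. CMT3, which methylates CHG sites, had a BTE1 mean of 11.8 ± 1.03, and CHR1, the remodeler also named DDM1, one of 6.39 ± 1.52 (SD, n = 3). No Pol II form lay at any of these 7 regions in any library, which was also the case for 84.6% of all members, so nothing is read from it. In the repair list 8 of 29 genes were linked to members and 9 to regions with WDR5A-HA. Beside the 2 BRCA genes it held the kinase gene WEE1, with a BTE1 mean of 8.80 ± 0.965 (SD, n = 3) and H3K4me3 in all 3 libraries.

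Of 28 genes of mitosis and cytokinesis, 13 were linked to members, 4 to regions with WDR5A-HA and 2 to regions without E2FA. H3K4me3 was in all 3 libraries at 2 of its 13 member regions, beside 53.4% of all members, and in no library at 9, beside 37.8%. The difference from the other lists was not tested. All 13 had H2A.Z, beside 89.2% of all members, so nothing is read from that. The median E2FA fold of this list was 2.63, against 12.1 for DNA replication, while the BTE1 medians were 5.49 and 10.2. CDKB1;1, a plant-specific cell cycle kinase, had BTE1 folds of 10.4, 9.82 and 5.18 and no H3K4me3. It nevertheless carried total Pol II at 3.08, 2.89 and 2.18, Ser5P at 3.36, 3.13 and 3.51, and TBP, but its region is shared with FIP37. POK2, a kinesin of the division plane, had BTE1 folds of 10.1, 8.99 and 5.08, with library 3 the low one as at CDKB1;1. CDKB1;2 (4.69, 7.72 and 5.63) and CDKB2;1 (4.30, 5.74 and 7.07) followed.

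**Figure D5:**
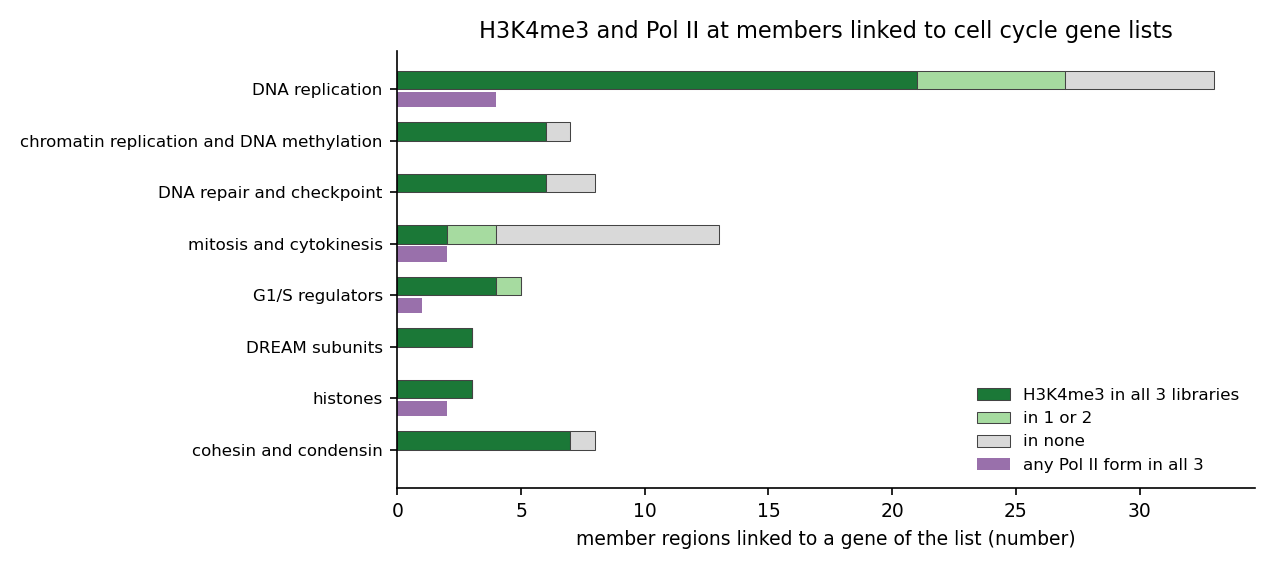
Number of member regions linked to genes of 8 cell cycle lists (horizontal axis), split by the libraries with an H3K4me3 peak, and below each bar the number with any Pol II form in all 3 libraries. Of the 13 regions of mitosis and cytokinesis 9 lack H3K4me3 in every library, against 6 of the 33 of DNA replication.

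In the list named cohesin and condensin, which also held SMC6A and MIM, 8 of 15 genes were linked to members and 5 to regions with WDR5A-HA. The condensin genes AT5G48600 (SMC3 in the annotation, with STRUCTURAL MAINTENANCE OF CHROMOSOME 4 among its other names) and SMC2 had BTE1 means of 11.5 ± 2.00 and 11.4 ± 0.623, SMC6A had 11.1 ± 0.955 and MIM, also named SMC6B, 9.10 ± 2.39 (SD, n = 3). No Pol II form lay at any of these 8 regions, beside the same 84.6% of all members. Of 26 regulators of the G1/S step, 5 were linked to members and 5 to regions with WDR5A-HA. DEL3, an atypical E2F, had a BTE1 mean of 6.25 ± 1.12 (SD, n = 3), all 3 Pol II forms in all 3 libraries and TBP. CYCA3;2 (4.31 ± 0.453), ICK6 (also KRP3, a kinase inhibitor, 4.18 ± 2.25 over 2 libraries) and DEL2 (3.71 ± 0.349 over 2 libraries) had none.

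Of 23 histone genes, 4 were linked to members and 8 to regions with WDR5A-HA, and of 19 DREAM subunit genes 3 and 8. Over all genes, 734 were linked to members and 909 to regions with WDR5A-HA, and the counts of these lists were not tested against that. All 3 member regions at histone genes had H3K4me3 in all 3 libraries and TBP, beside 53.4% and 12.6% of all members. The region of the histone H3.1 gene AT5G65360, shared with HTR11, had all 3 Pol II forms, with total Pol II at 3.37, 4.23 and 3.28, and lies 321 bp from a WDR5A-HA region. The H3.1 genes AT5G10390 and AT5G10400 share 1 region with a BTE1 mean of 9.63 ± 1.75, and HTA6, of histone H2A, had 7.98 ± 1.76 (SD, n = 3). Reads from the near-identical H3.1 copies may have been placed on either, so these values are uncertain. The 3 DREAM subunit genes were E2FB (E2F1 in the annotation, mean BTE1 fold 2.80 ± 0.413), AT2G20110 (5.57 ± 0.456) and AT5G25790 (3.13 ± 0.341; SD, n = 3 each), all with H3K4me3 in all 3 libraries. With 3 regions in each of these lists, nothing is read from such counts.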

How the data were processed

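Fastp, Bowtie2 2.3.3, MACS2 2.2.5, deepTools and the build TAIR10 are named, without roles, per the submitters' processing notes. Each deposited peak of a library has a score, a fold enrichment (ratio), −log10 p and −log10 q by the authors. Peaks of E2FA reach p up to 0.01 and those of the other features q up to 0.05, as the values show. The deposited lists of regions give positions, with no values. Of 90 samples in the labels, the 30 wild-type libraries with peaks were used, with 11 region lists; the other samples were not analysed here. Members, gene lists and tests were chosen with earlier results of these data known.

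A feature counted at a region when a peak overlapped it by at least 1 bp, and its fold was that of the highest such peak. Shares and median folds were computed per library, and differences between sets taken within each library, which pairs the sets by library, and tested with an exact two-sided sign-flip permutation test (smallest p 0.25). P-values were adjusted with Benjamini-Hochberg over 14 share and 7 fold differences. Each p-value rests on the 3 within-library differences of 1 feature. It is 0.25 whenever all 3 have the same sign, whatever their size or spread. Genes came from the RefSeq table of TAIR10.1, whose nuclear chromosomes are those of TAIR10, matched by locus identifier (251 of 251 list genes); its coordinates were used for distances only. Named were the 12 members highest in BTE1, up to 4 per gene list, the 4 highest in H3K4me3 and in Ser2P, the 4 strongest without H3K4 methylation or Pol II, and those at the edge of the rule; MCM5 and ATIM fall under several. Some members that this rule names are not reported here. The functions were tested on simulated data. A motif search was not run, since no sequence was used here. Python 3.11.15, numpy 2.4.6, pandas 2.3.3, scipy 1.17.1 and matplotlib 3.10.9 were used.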

Additional observations from a re-analysis of the deposited data

Results flagged for a closer look

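WDR5A-HA peaks were present at members in the libraries that the selection did not use: 7.79% of members in replicate 2 and 15.8% in replicate 3. These shares are described only, with no test. Replicate 1 had none by construction of the rule, and no control precipitation was set beside these values.

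The H2A.Z share went in opposite directions between classes of regions when those without WDR5A-HA were set against those with it. It was higher without WDR5A-HA by 1.72 points where BTE1 and E2FA were present (3 of 3 libraries), and the difference was -0.972 points at BTE1 regions without E2FA and -12.3 points at E2FA regions without BTE1 (3 of 3 libraries each). The difference between the classes itself was not tested.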

How the results depend on the processing

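Of 223 differences recomputed under another setting, 208 kept their direction, among them every one for H3K4me3 and the 3 Pol II forms. Part of the 208 was fixed in advance. The setting with no replicate block repeats the main value of each of the 21 differences. Leaving out 1 library cannot turn a difference that has the same sign in all 3 libraries. The 208 is therefore not a measure of robustness. The 14 recomputed values that turned belonged to 4 small differences. For H3K4me2 against the regions with WDR5A-HA (0.14 points) the value was -5.38 with peaks within 500 bp, -1.01 with the list for the whole series, -0.0783 with E2FA in all 3 libraries, -0.459 with BTE1 in all 3 and -4.19 with strong BTE1 regions only. For H3K4me1 (0.46 points) it was -0.278 with 50% coverage, -2.34 within 500 bp, -0.156 with peaks above the median score, -0.0272 with BTE1 in all 3 and -1.07 with strong BTE1 regions. Against the regions without E2FA, H2A.Z (-1.70) became 0.678 with peaks above the median score and 0.429 with BTE1 in all 3, and H3K4me2 (-3.53) became 4.31 with peaks above the median score and 3.22 with 50% coverage. The H3K4me1 difference from the regions without E2FA (4.89) was 0 with 50% coverage and then had no direction. The cause was not tested. The strong-region setting (BTE1 mean fold at or above the median), the one with H3K4me3 in all 3 libraries and the one at 1000 bp were chosen after seeing the data.

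The number of members was 672 with 50% coverage, 495 without WDR5A-HA regions within 500 bp, 442 without any WDR5A-HA peak, 453 and 418 with E2FA or BTE1 in all 3 libraries, and 529 with E2FA at q 0.05 in 2 libraries. The share of members with a replicate 3 WDR5A-HA peak moved to 7.05% with 50% coverage. With the nearest gene only, 74 list genes were linked. The planned E2F motif share was not run.

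The sets are paired within each library. With no replicate block (3 against 3 values, smallest exact permutation p 0.10) the H3K4me3 difference was by construction the same -24.0 points, with p 0.1, and no call changed. Leaving out each replicate in turn gave -24.7 to -23.3 points for H3K4me3, total Pol II from -28.6 to -27.9, Ser5P from -42.2 to -38.4, and 1.60 to 1.84 for H2A.Z, with 441 to 519 members. Neither test can reach 0.05 with 3 libraries. Unknown depth limits every absence of a peak.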
